A study of Homo sapiens with 26 samples.

Results

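ALDH18A1 and 8 genes set against it were followed through ribosome profiling and RNA-seq of HEK293T cells, a human embryonic kidney line. ALDH18A1 was selected on its footprints, which had the highest enrichment at the outer mitochondrial membrane (OMM), and PYCR1, PYCR3, ALDH1B1, ALDH2, ALDH4A1, ALDH5A1, ALDH6A1 and ALDH7A1 were added as its pathway partners and relatives. The 9 genes are all among the 60663 genes counted in RNA-seq. In ribosome profiling 8 of them have an entry of their own among 58849 entries, while ALDH2 falls in an entry shared by 3 overlapping genes and is given no footprint value. The OMM footprints chose the genes, so footprint values at the OMM are descriptions without a test.

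All cells carried an Avi tag on the endogenous ribosomal protein RPL29, the peptide that the biotin ligase BirA modifies, and a BirA switched on by blue light (LOV-BirA). The enzyme sat at the ER (fused to Sec61β, driven by the SFFV promoter), at the OMM (fused to the transmembrane domain of OMP25, driven by the EF1α promoter) or in the cytosol, in polyclonal lines sorted for fluorescence. Ribosome profiling covered these 3 locations with cycloheximide (CHX), 2 replicates each, and RNA-seq of intact mRNA used the OMM enzyme in wild-type cells with a negative control gRNA, in AKAP1 null and LARP4 null cells (2 replicates each), and in cells without CHX (1 replicate), for which the labels name no genotype or gRNA. Each of the 13 lysates gave a total input and a streptavidin pulldown, 26 libraries in all. Each null genotype was a single monoclonal line, its treatment with CHX was assumed from the general protocol, and the cells without CHX received a shorter pulse of light and biotin. The labels only number the replicates, so p-values measure the spread between these libraries.

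Estimated footprints in coding sequences ran from 1025114 in the first OMM pulldown to 19539527 in the first ER pulldown, and RNA-seq counts from 38347615 to 100840544. The gRNA targets were lower in the labelled lines: AKAP1 had 21.4 and 22.4 FPKM in wild-type total inputs and 6.02 and 3.81 FPKM in AKAP1 null ones, and LARP4 had 27.7 and 28.5 FPKM against 9.78 and 9.12 FPKM in LARP4 null ones. Of 12 markers checked in the 7 RNA-seq total inputs, the 6 expected in HEK293T ranged from 0.204 to 134 FPKM and the 6 of other tissues from 0 to 0.0456 FPKM. Among the expected ones KRT8, PAX2 and LHX1 were low, with medians of 1.09, 1.06 and 0.643 FPKM. VIM, KRT18 and NEFM had medians of 96.3, 16.5 and 8.59 FPKM.

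ALDH18A1 makes pyrroline carboxylate from glutamate in mitochondria, the committed step of proline synthesis. PYCR1 (mitochondrial) and PYCR3 (cytosolic) reduce that intermediate to proline, and ALDH4A1 oxidises it back to glutamate when proline is broken down. The other mitochondrial aldehyde dehydrogenases are matrix enzymes of the same fold family: ALDH2 and ALDH1B1 oxidise acetaldehyde, ALDH5A1 clears succinic semialdehyde from GABA, ALDH6A1 acts in valine breakdown and ALDH7A1 in lysine breakdown. All of them are made from nuclear genes on cytosolic ribosomes. Most matrix proteins carry a cleaved N-terminal presequence rich in basic residues, and some are imported while still being translated on ribosomes held at the OMM.

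The opening bases of the coding sequence are shown for 5 of the genes because a mitochondrial presequence, where a protein has one, begins there. The tables used here do not say which of these proteins has one. Capitals mark codons for arginine or lysine among the first 30 bases, read from the canonical transcripts of GENCODE 44 on GRCh38, on the coding strand.
ALDH18A1: atgttgagtcaagtttacCGCtgtgggttc
PYCR1: atgagcgtgggcttcatcggcgctggccag
ALDH1B1: atgctgCGCttcctggcacccCGGctgctt
ALDH2: atgttgCGCgctgccgccCGCttcgggccc
ALDH5A1: atggcgacctgcatttggctgCGGagctgt
These stretches lie at chr10:95653348-95653377 (ALDH18A1, minus strand), chr17:81936785-81936814 (PYCR1, minus), chr9:38395749-38395778 (ALDH1B1, plus), chr12:111766983-111767012 (ALDH2, plus) and chr6:24494997-24495026 (ALDH5A1, plus), each inside a single coding exon. Over the first 30 codons ALDH18A1 encodes 3 basic residues, PYCR1 2, ALDH6A1 and ALDH1B1 4, ALDH2, ALDH4A1 and ALDH7A1 5 and ALDH5A1 6, and none of these 8 encodes an acidic one. PYCR3, whose protein is cytosolic, encodes 4 basic and 1 acidic residue. In this window ALDH18A1, the highest in OMM footprints, thus has fewer basic residues than the other mitochondrial members except PYCR1. The window is shorter than the putative presequence that the study gives for ALDH18A1. Whether the number of basic residues bears on OMM enrichment was not tested.

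ALDH18A1 (ENSG00000059573, chr10:95605941-95656711, 18 exons) encodes the longest protein of the set, 795 aa. ALDH1B1 and ALDH2 encode 517 aa and are 75% identical over 511 aligned positions, ALDH4A1 encodes 563 aa, ALDH5A1 and ALDH6A1 535 aa and ALDH7A1 539 aa. PYCR1 (319 aa) and PYCR3 (274 aa) are the shortest and 46.8% identical over 265 aligned positions.

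In wild-type total inputs ALDH18A1 mRNA stood at 26.4 and 28.2 FPKM, ALDH1B1 at 28.4 and 28.6 and PYCR1 at 20.7 and 31.5. The 2 values of PYCR1 lay on either side of those of the other two, so these 3 were not separated beyond the spread of PYCR1. ALDH6A1 followed at a mean of 9.78 ± 0.12 FPKM (SD, n = 2), ALDH5A1 at 6.55 ± 0.57, ALDH7A1 at 5.81 ± 0.81, PYCR3 at 5.35 ± 0.71, ALDH2 at 3.78 ± 0.62 and ALDH4A1 at 2.81 ± 0.49. In that order the values of ALDH7A1 overlapped those of ALDH5A1 and of PYCR3, its neighbours on either side, while the remaining neighbours did not overlap. FPKM divides by all annotated exon bases of a gene, 17914 for ALDH7A1, 9723 for ALDH2 and 7563 for ALDH5A1 against 3759 for ALDH18A1 and 3117 for ALDH1B1. The order between genes therefore depends on that length. In counts ALDH7A1 had 4388 and 4310 and ALDH18A1 3808 and 4869. In the total inputs of the OMM footprint lysates, PYCR1 had 166 and 128 RPKM in its counted coding sequence, against 36.5 and 36.6 RPKM for ALDH18A1, 42.2 and 38.7 RPKM for ALDH1B1 and 9.57 and 11.2 RPKM for ALDH4A1. PYCR1 thus had the most footprints per base of the members there, and ALDH4A1, the opposing enzyme of proline breakdown, the fewest, over the part of each reading frame that was counted. PYCR1 also varied most between libraries, from 108 RPKM in the first ER total input to 500 RPKM in the second cytosolic one.

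**Figure D1:**
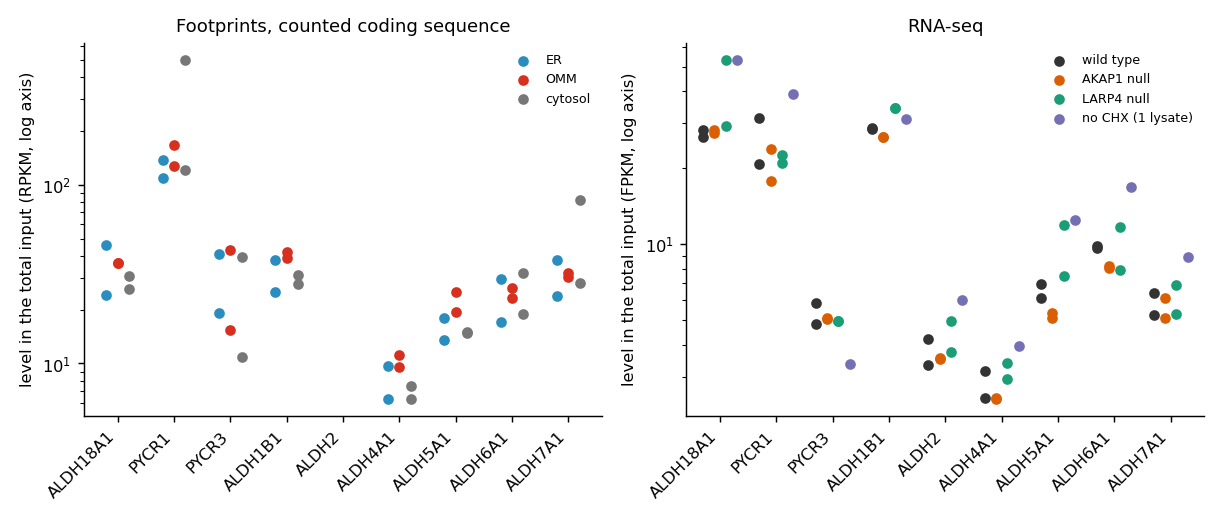
Levels of the 9 genes in the total inputs, as RPKM of the counted coding sequence in ribosome profiling (left) and FPKM in RNA-seq (right), both on log axes, 1 point per library. PYCR1 had 108 to 500 RPKM and ALDH4A1 2.44 to 3.97 FPKM over all total inputs; ALDH2 has no footprint entry of its own.

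At the OMM, ALDH18A1 had 951 and 1046 estimated footprints in the total inputs and 3517 and 8673 in the far shallower pulldowns. Its RPKM went from 36.5 to 655 in replicate 1 and from 36.6 to 657 in replicate 2, a log2 enrichment (pulldown over total input) of 4.17 and 4.16, or 18.0-fold. It ranked first of 6987 genes in replicate 1 and first of 7051 in replicate 2, and the next genes in the edgeR fit, GFM2 and IARS2, had means of 3.64 and 3.52 over both replicates. The replicates are almost on top of each other, and the median of all genes lay at -0.40 and -0.38.

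ALDH1B1 and ALDH4A1 came next among the members in the counted coding sequence, an order that changes when all exons are counted, as given below for ALDH5A1. ALDH1B1 had a log2 enrichment of 2.01 and 2.07 and ALDH4A1, the enzyme that reverses the product of ALDH18A1, 2.41 and 1.61. ALDH6A1 stood at 0.75 and 1.01, ALDH5A1 at 0.37 and 0.35, ALDH7A1 at 0.44 and 0.21, and PYCR1 at -0.23 and 0.02. The 2 enzymes of mitochondrial proline synthesis, ALDH18A1 and PYCR1, thus lay 4.39 and 4.15 apart. In the edgeR fit over all 12 ribosome profiling libraries the values were 4.19 (SE 0.10) for ALDH18A1, 2.06 (SE 0.11) for ALDH1B1, 2.01 (SE 0.18) for ALDH4A1, 0.91 (SE 0.12) for ALDH6A1 and -0.08 (SE 0.11) for PYCR1, around a median of -0.38 over 6728 genes and of 0.32 over 688 nuclear-encoded mitochondrial genes. SUPV3L1, a matrix RNA helicase of nearly the same length that the study paired with ALDH18A1 in reporters, stood at -0.27 and -0.18.

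**Figure D2:**
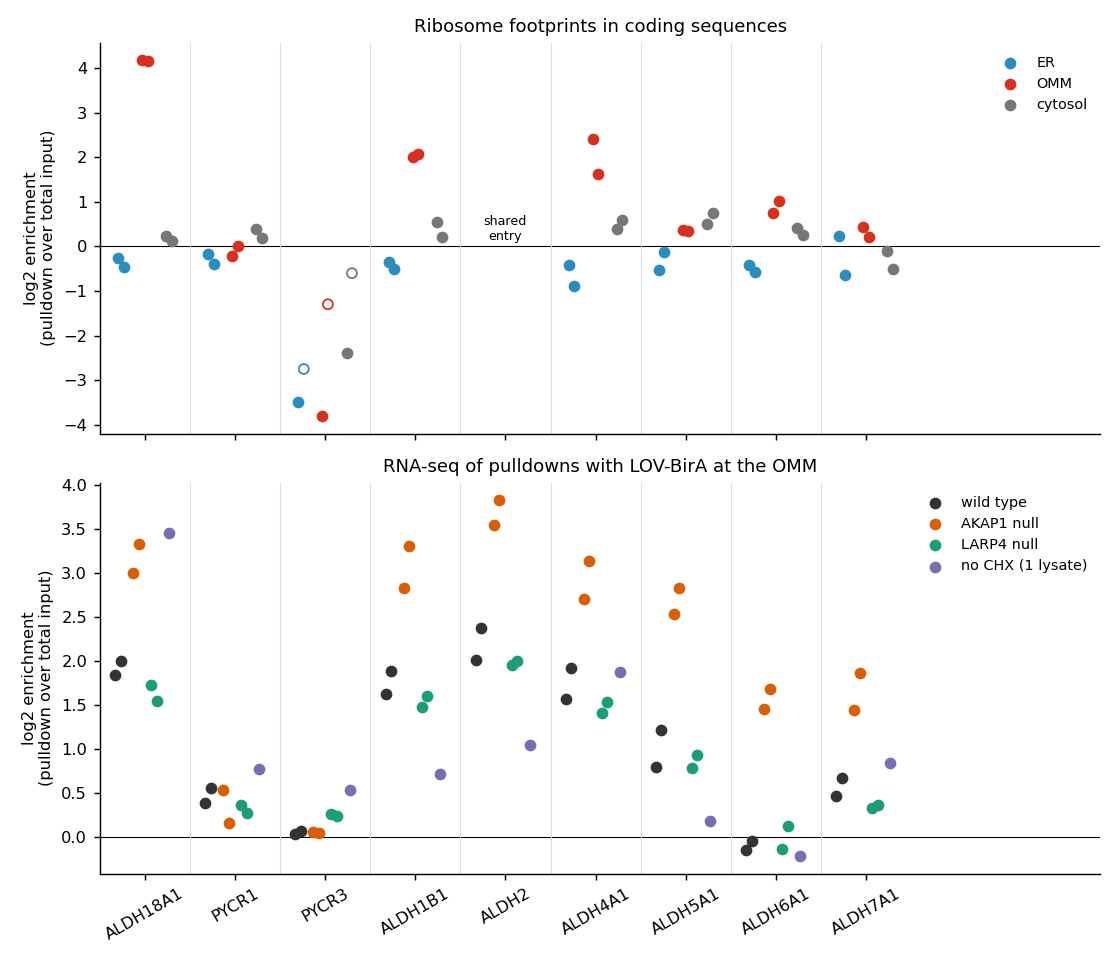
Log2 enrichment (pulldown over total input) of each gene in every lysate, from footprints at 3 locations (top, log2 ratio of RPKM) and from RNA-seq with LOV-BirA at the OMM (bottom, log2 ratio of CPM), 1 point per lysate; open points had fewer than 64 footprints in the total input. ALDH18A1 stands at 4.17 and 4.16 in OMM footprints, and ALDH2 reaches 3.82 in RNA-seq of AKAP1 null cells.

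The deposited coding counts cover unequal parts of these genes, which touches the footprint values of ALDH5A1, ALDH7A1 and PYCR3. The deposited coding length is 100% of the coding bases of ALDH18A1, 99.5% of ALDH1B1, 94% of ALDH4A1, 92.1% of ALDH6A1 and 78.9% of PYCR1, but 36.6% of ALDH5A1, 19.5% of ALDH7A1 and 17.5% of PYCR3. The deposited lengths were set against the number of positions that GENCODE 44 gives as coding in some transcript and untranslated in none. They lie near it for ALDH5A1 (587 against 612 bases) and PYCR3 (144 against 141), but less so for ALDH7A1 (315 against 424). By that definition no counted position of the canonical reading frame lies beyond codon 146 in ALDH5A1, codon 64 in ALDH7A1 and codon 31 in PYCR3. The same definition also holds positions outside that frame, which are coding only in other transcripts. The canonical frame holds 192 of 424 positions in ALDH7A1 and 91 of 141 in PYCR3, and in ALDH5A1 too some lie outside it. Within the canonical frame, the coding values of ALDH5A1, ALDH7A1 and PYCR3 therefore describe its start, whereas those of ALDH18A1 describe all of it.

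Footprints on the exon positions outside the counted coding and untranslated classes were far more enriched at the OMM for ALDH5A1. These positions, 2651 bases that hold 1167 coding bases of the canonical transcript, had 175 and 219 footprints in the OMM total inputs and 361 and 1146 in the pulldowns, a log2 enrichment of 3.33 and 3.50. In the same libraries the counted coding sequence, with 162 and 135 footprints against 43 and 80, stood at 0.37 and 0.35. The difference, 3.05 in the mean of both lysates, ranked first of 2508 genes with at least 64 footprints in both classes, whose median was -0.01. The median was 0.37 over the 130 mitochondrial genes longer than 400 aa, with quartiles of -0.20 and 1.27.

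ALDH7A1 differed in the same direction. Its other exon positions had 423 and 529 footprints in the total inputs and 279 and 713 in the pulldowns, a log2 enrichment of 1.68 and 1.54. The counted coding sequence stood at 0.44 and 0.21, and the pulldowns held only 30.7 and 61.2 footprints there. The mean difference of 1.29 ranked 69 of 2508. In PYCR1 the other positions stood at -0.25 and -0.28, and in PYCR3 at -0.38 and -0.31, so both pyrroline carboxylate reductases lay near or below 0 at the OMM in both classes. At the ER the other positions lay below the counted coding sequence, at -1.23 and -1.48 against -0.53 and -0.12 for ALDH5A1 and at -0.57 and -0.76 against 0.24 and -0.65 for ALDH7A1. In the cytosol they lay below it for ALDH5A1, at 0.06 and 0.02 against 0.51 and 0.74, and above it for ALDH7A1, at 0.44 and 0.30 against -0.10 and -0.50. Counted over all exons, the fitted OMM enrichment was 2.74 (SE 0.11) for ALDH5A1 and 1.44 (SE 0.10) for ALDH7A1, and 4.10 (SE 0.09) for ALDH18A1. ALDH5A1 then lay above ALDH1B1 at 1.97 (SE 0.10) and ALDH4A1 at 1.92 (SE 0.17). This split was chosen after the values had been seen, and it compares positions within a gene, not conditions.

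The counted stretch of PYCR3 lay below 0 in all 6 footprint lysates. It had 187 and 38.02 footprints in the ER total inputs against 19.6 and 9 in the pulldowns, 67.8 and 26.6 against 1 and 5 at the OMM, and 210 and 16.1 against 26.4 and 22.0 in the cytosol. The second replicates lie under the minimum of 64 footprints, so PYCR3 was not tested in footprints. Its other exon positions, 1034 bases, stood at -0.11 and -0.28 at the ER and at 0.68 and 1.12 in the cytosol.

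**Figure D3:**
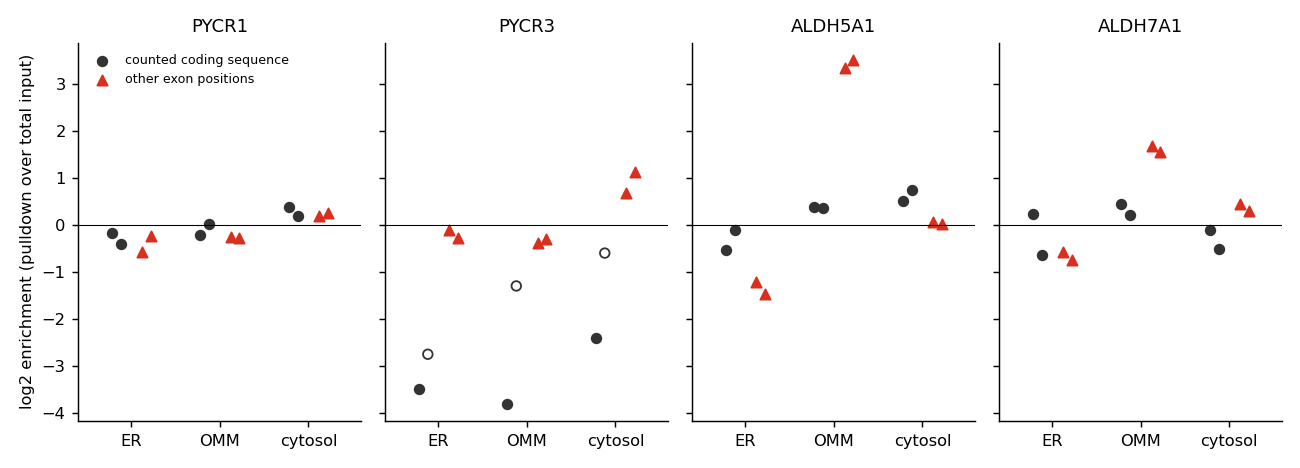
Log2 footprint enrichment (pulldown over total input) at the ER, OMM and cytosol in the counted coding sequence (circles, open under 64 footprints in the total input) and in the remaining exon positions (triangles) of 4 genes, 1 point per lysate. At the OMM, ALDH5A1 has 0.37 and 0.35 in the first class and 3.33 and 3.50 in the second, while PYCR1 has similar values in both.

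The ER and cytosolic enzymes give the background for the same genes. At the ER all 7 members tested were lower in the pulldown, from -0.92 (SE 0.17) for ALDH4A1 to -0.46 (SE 0.18) for ALDH7A1, with edgeR quasi-likelihood adjusted p of 8.05e-05 and 0.0210. So were 72.1% of the 7381 genes tested, around a median of -0.68, and ALDH18A1 at -0.65 (SE 0.09) lay 0.03 above that median. With TMM, which centres the genes, none of the 7 was called (adjusted p of 0.231 to 0.954), ALDH18A1 stood at 0.01, and the split of all calls went from 1465 higher and 5321 lower to 2190 higher and 1800 lower. On the RPKM scale of single lysates, where the median gene lay at -0.33 and -0.44, ALDH18A1 had -0.26 and -0.47, ALDH1B1 -0.35 and -0.51, and ALDH6A1 -0.42 and -0.57. ALDH7A1, at 0.24 and -0.65, and ALDH5A1, at -0.53 and -0.12, rested on 1 replicate each: ALDH7A1 was not called without ER replicate 2 (-0.13, adjusted p = 0.610), nor ALDH5A1 without ER replicate 1 (-0.31, adjusted p = 0.275). Without the term for the lysate 2 of 7 were called lower, as were 3244 of 7381 genes, and ALDH18A1 had an adjusted p of 0.0601.

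In the cytosol 0 of 7 members was called by edgeR or DESeq2, where 7.99% of 7162 genes were called in either direction. ALDH18A1 had a log2 enrichment of 0.23 and 0.12 per lysate, on a scale where the median gene lay at 0.24 and 0.25. The fitted value of ALDH18A1 was -0.06 (SE 0.09), against a median of 0.02 over all genes. ALDH7A1 was lowest, at -0.10 and -0.50 (fitted -0.54, SE 0.17, adjusted p = 0.0588), and ALDH5A1 highest, at 0.51 and 0.74 (fitted 0.38, SE 0.16, adjusted p = 0.184). These 2 had an unadjusted p below 0.05. Without cytosol replicate 1 ALDH7A1 was called, at -0.74 with an adjusted p of 0.0132.

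RNA-seq of intact mRNA bound to the labelled ribosomes counted all exons and so included ALDH2. In wild-type cells 7 of the 9 genes were higher in the pulldown, against 20.2% of 13856 genes tested and 57.5% of 1019 nuclear-encoded mitochondrial genes. ALDH2 was highest, with log2 enrichments of 2.01 and 2.37, followed by ALDH18A1 at 1.85 and 2.00. ALDH1B1 had 1.63 and 1.88 and ALDH4A1 1.57 and 1.92. The last 3 overlapped, and ALDH2 lay just above them. ALDH5A1 came after them, at 0.80 and 1.21.

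Fitted values were 2.19 (SE 0.12, edgeR adjusted p = 8.20e-06) for ALDH2, 1.92 (SE 0.11, 9.04e-06) for ALDH18A1, 1.76 (SE 0.13) for ALDH1B1, 1.74 (SE 0.13) for ALDH4A1, 1.01 (SE 0.12) for ALDH5A1, 0.57 (SE 0.11) for ALDH7A1 and 0.47 (SE 0.11) for PYCR1. PYCR3 at 0.06 (SE 0.09) and ALDH6A1 at -0.09 (SE 0.10) did not pass. The median of all genes was -0.28. TMM moved that to 0.01, with 4296 genes higher and 3847 lower in place of 2803 and 6324, and added PYCR3 at 0.35 to the calls. Without wild-type replicate 2 the calls of PYCR1 and ALDH7A1 were lost, at 0.39 (adjusted p = 0.112) and 0.47 (adjusted p = 0.0767).

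ALDH18A1 was therefore not set apart in RNA-seq the way it was in footprints. Its mean footprint enrichment exceeded its mean RNA-seq enrichment by 2.24, against 0.29 for ALDH1B1 and 0.27 for ALDH4A1. For ALDH6A1 the gap was 0.97, and the footprint values of ALDH5A1 and ALDH7A1, which cover only part of the frame, were not compared. The assays were scaled separately and count unlike parts of a gene. ALDH18A1 was chosen for its high OMM footprints, which by itself favours a large gap. No gap was computed over all genes, so these values are descriptions.

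Over the 6 RNA-seq lysates with CHX, ALDH18A1 was compared with each of the 8 other genes by an exact two-sided sign-flip permutation test on the differences of log2 enrichment, with p-values adjusted over the 8 pairs. The differences are given as mean ± SD over these 6 lysates, 2 of each of 3 genotypes. The p-values pool the genotypes and do not measure the spread within 1 genotype. ALDH18A1 exceeded PYCR3 by 2.12 ± 0.81 (range 1.30 to 3.28), PYCR1 by 1.86 ± 0.77 (range 1.27 to 3.16), ALDH6A1 by 1.75 ± 0.25 and ALDH7A1 by 1.39 ± 0.13, in 6 of 6 lysates each. It exceeded ALDH5A1 by 0.73 ± 0.24 and ALDH4A1 by 0.20 ± 0.13, again in 6 of 6, and lay below ALDH2 by a difference of -0.38 ± 0.15, higher in 0 of 6. Each of these 7 pairs reached an exact p of 0.0312, the smallest that 6 lysates allow, and an adjusted p of 0.0357. ALDH1B1 was not separated, with a difference of 0.12 ± 0.12 (higher in 5 of 6 lysates, range -0.06 to 0.25, adjusted exact p = 0.0938).

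Without CHX, ALDH18A1 stood out from its relatives again. The single lysate gave a log2 enrichment of 3.45, rank 5 of 15506 genes, where the wild-type lysates with CHX gave 1.85 and 2.00. ALDH2 went the other way, with 1.05 against 2.01 and 2.37, as did ALDH1B1, with 0.72 against 1.63 and 1.88, and ALDH5A1, with 0.19 against 0.80 and 1.21. ALDH4A1, at 1.88, lay between its values with CHX, and ALDH6A1, at -0.21, lay just below them.

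The 2 pyrroline carboxylate reductases and ALDH7A1 lay above both values with CHX. PYCR1 had 0.78 against 0.39 and 0.56, PYCR3 0.53 against 0.03 and 0.08, and ALDH7A1 0.84 against 0.47 and 0.67. The change from the mean with CHX was 1.53 for ALDH18A1 and -1.14 for ALDH2. The median change was 0.16 over 13016 genes and 0.11 over 351 mitochondrial genes longer than 400 aa. A rise was common, with 67.4% of the 13016 genes and 63.5% of the 351 above their mean with CHX. The quartiles over all genes, -0.09 and 0.41, enclosed the changes of PYCR1 (0.31) and ALDH7A1 (0.27), while PYCR3 (0.48) lay above them. Levels in the total input differed as well, with 52.9 FPKM for ALDH18A1 against 26.4 and 28.2, at 92886870 counts against 38347615 and 45939432. With 1 lysate there is no replicate check, and CHX, the shorter pulse and any difference of line cannot be told apart.

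In AKAP1 null cells, the line edited at an OMM scaffold protein that binds RNA, 8 of 9 genes were higher in the pulldown, against 13.9% of 13856 genes. Among nuclear-encoded mitochondrial genes 542 of 1019 were higher, and 65.3% of the 363 longer than 400 aa. ALDH2 had log2 enrichments of 3.54 and 3.82, ALDH18A1 3.001 and 3.32, ALDH1B1 2.83 and 3.30, ALDH4A1 2.702 and 3.13 and ALDH5A1 2.53 and 2.83. These 5 ranked between 5 and 40 of 13769 genes in replicate 1 and between 6 and 43 of 13362 in replicate 2. None of their values overlapped the wild type, a separation that was not counted over all genes. ALDH6A1, near 0 in wild type, reached 1.45 and 1.68, and ALDH7A1 1.44 and 1.86. PYCR1 at 0.54 and 0.17 and PYCR3 at 0.05 and 0.05 lay in or near the range of wild type, and PYCR1 was not called without AKAP1 null replicate 1 (0.17, adjusted p = 0.419) or replicate 2 (0.54, adjusted p = 0.0565). The scaling by TMM changed the split of all calls from 1930 higher and 3892 lower to 2772 and 2865, and 8 members were called again.

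The difference between AKAP1 null and wild-type enrichment, tested in the same edgeR fit, was higher for 7 of 9 genes, against 6.52% of 13856 genes and 24.3% of 1019 mitochondrial genes. The 7 were the members longer than 400 aa. ALDH5A1 rose by 1.67 (SE 0.17, adjusted p = 0.000661) and ALDH6A1 by 1.66 (SE 0.14, adjusted p = 0.000403), ranks 9 and 11 of all genes. ALDH2 rose by 1.49 (SE 0.16), ALDH1B1 by 1.31 (SE 0.18), ALDH18A1 by 1.24 (SE 0.15, adjusted p = 0.00137), ALDH4A1 by 1.17 (SE 0.19) and ALDH7A1 by 1.08 (SE 0.16). By these estimates ALDH18A1, the highest in footprints, came after ALDH1B1, and ALDH7A1 rose least of the 7. From ALDH1B1 down, neighbours differed by less than the SE of either, so their order was not resolved.

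PYCR1 differed by -0.12 (SE 0.15) and PYCR3 by -0.00 (SE 0.13), neither passing the test. The median difference was 0.19 over all genes, 0.73 over 363 mitochondrial genes longer than 400 aa (57.3% of them called higher), 0.00 over 402 of 200 to 400 aa and -0.87 over 254 shorter than 200 aa (0% called higher). With TMM the split of all calls went from 903 higher and 1103 lower to 285 and 1424, and all 7 members remained called. Without the term that pairs the libraries of a lysate 4 of 9 were called higher, against 98 of 13856 genes. ALDH18A1 (adjusted p = 0.166), ALDH5A1 (0.0847) and ALDH7A1 (0.0611) were lost. ALDH4A1 was lost without wild-type replicate 1 (0.99, adjusted p = 0.0712) or AKAP1 null replicate 2 (0.96, adjusted p = 0.0686), and ALDH7A1 without wild-type replicate 1 (0.98, adjusted p = 0.0587). The null line is 1 clone, so loss of AKAP1 and a trait of the clone cannot be told apart.

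**Figure D4:**
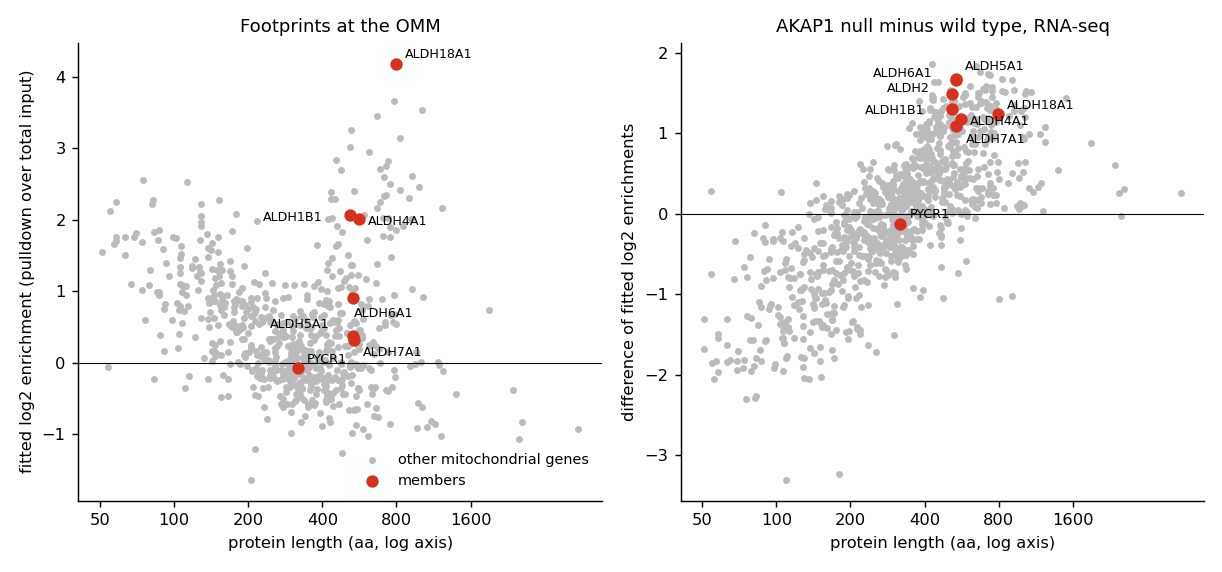
Protein length (aa, log axis) of nuclear-encoded mitochondrial genes against fitted log2 enrichment of footprints at the OMM (left, 688 genes) and against the AKAP1 null minus wild-type difference in RNA-seq enrichment (right, 1019 genes), with the members in red. ALDH18A1 at 4.19 is the highest point on the left; on the right the members over 400 aa lie from 1.08 to 1.67 and PYCR1 at -0.12.

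In LARP4 null cells, the line edited at an RNA-binding protein of the La family, 8 of 9 genes were higher in the pulldown, against 22.8% of 13856 genes. Among nuclear-encoded mitochondrial genes 533 of 1019 were higher, and 44.9% of the 363 longer than 400 aa. ALDH2 had 1.96 and 2.00, ALDH18A1 1.73 and 1.54, ALDH1B1 1.48 and 1.61 and ALDH4A1 1.41 and 1.53. By their means the order of these 4 was that of wild type, but it did not hold in single lysates. ALDH1B1 lay above ALDH18A1 in LARP4 null replicate 2, and ALDH4A1 (1.92) above ALDH1B1 (1.88) in wild-type replicate 2. ALDH6A1, at -0.14 and 0.13, did not pass. Without the term for the lysate 4 of 9 were called higher, against 1576 of 13856 genes. PYCR1, PYCR3, ALDH5A1 and ALDH7A1 were lost (adjusted p of 0.0598 to 0.399). Without LARP4 null replicate 1 PYCR3 stood at 0.25.

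None of the 9 differed from wild type in enrichment, where 0% of 13856 genes were called by edgeR at an adjusted p below 0.05. At an unadjusted p below 0.05 none of the 9 passed either, against 2270 of all genes, and DESeq2 called 0 of 9, and 4 higher and 491 lower of all genes. This difference and that of AKAP1 null cells share the wild-type libraries. The differences ran from -0.29 (SE 0.15) for ALDH18A1 to 0.20 (SE 0.13) for PYCR3, with a median of -0.21 over the 9, against 0.17 over all genes, which 1 of the 9 exceeded. Without LARP4 null replicate 1, ALDH18A1 was called at -0.38 (adjusted p = 0.0392).

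**Figure D5:**
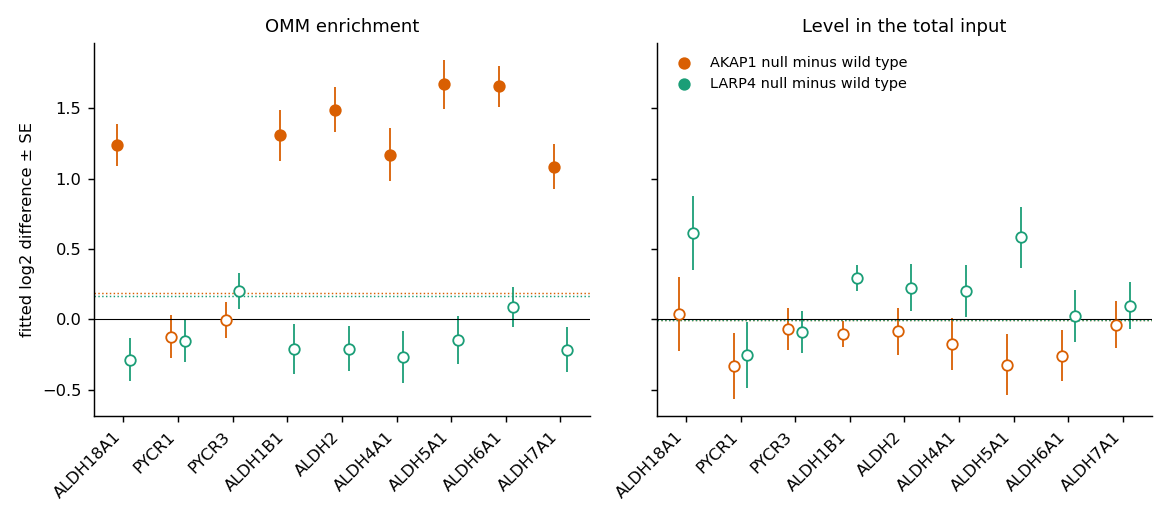
AKAP1 null and LARP4 null minus wild type for the 9 genes, as the fitted log2 difference ± SE in OMM enrichment (left) and in the level in the total input (right), with filled points at an adjusted p below 0.05 and dotted lines at the median of all genes. The 7 filled points, all AKAP1 null, lie between 1.08 and 1.67.

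Levels in the total input did not pass the test for any of the 9 in either line, where 0% (AKAP1 null) and 0.0143% (LARP4 null) of 13977 genes were called by edgeR, and DESeq2 also called 0 of 9 in both. None of the 9 had an unadjusted p below 0.05 in AKAP1 null cells, where 489 genes did. In LARP4 null cells 2 did, of 509 genes: ALDH5A1 at 0.58 (SE 0.22) and ALDH1B1 at 0.29 (SE 0.09), both with an adjusted p of 0.990. ALDH18A1 had 26.4 and 28.2 FPKM in wild type, 28.3 and 27.5 FPKM in AKAP1 null and 29.2 and 53.3 FPKM in LARP4 null cells, a spread within LARP4 null wider than its difference from wild type (0.62, SE 0.26).

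The genes whose log2 enrichments over the 13 lysates lay nearest to those of ALDH18A1 were sought among 6423 genes by root mean square difference. They were IARS2 (0.31), a mitochondrial tRNA synthetase, GFM2 (0.44) and GUF1 (0.47), factors of mitochondrial translation, OXCT1 (0.72), an enzyme of ketone body use, and METTL17 (0.80), a factor of the mitochondrial ribosome. Of the 6 other members ranked, ALDH4A1 came nearest, at rank 13 (0.99), then ALDH1B1 at rank 25 (1.14), while PYCR1 lay at rank 1249 (2.28). ALDH2, which has no footprint entry of its own, and PYCR3, below the minimum, were not ranked. ALDH5A1 (rank 308) and ALDH7A1 (rank 451) entered with the counted coding sequence alone. The lysates share cells and LOV-BirA lines, and OMM footprints, which chose ALDH18A1, enter the measure.

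The wider pathway was read from lists. Of 19 proline and glutamate neighbours, 15 were tested in wild-type RNA-seq, where 5 were higher and 4 lower (20.2% and 45.6% of all genes), with a median of 0.18 against -0.28 for all genes. PRODH, the first enzyme of proline breakdown, was higher at 0.82 (SE 0.22), OAT, which makes the same intermediate from ornithine, at 0.46 (SE 0.12) and GOT2, the mitochondrial aspartate transaminase, at 0.47 (SE 0.11), while EPRS1, the cytosolic synthetase for glutamate and proline, was lower at -0.81 (SE 0.10). In AKAP1 null cells 9 were higher and 1 lower (13.9% and 28.1% of all genes), and the difference from wild type was higher for 5 of 15 and lower for none, among them GOT2 by 1.42 (SE 0.15), OAT by 1.26 (SE 0.17), GLUD1, glutamate dehydrogenase, by 1.06 (SE 0.19) and ARG2, mitochondrial arginase, by 0.70 (SE 0.14). In LARP4 null cells 2 were higher and 2 lower (22.8% and 30% of all genes), and 0 of 15 differed from wild type. At the ER 1 of 12 had higher footprints and 11 lower (19.8% and 72.1% of all genes), the higher being the plasma membrane transporter SLC1A5 at 2.11 (SE 0.12), and in the cytosol 0 of 12 was called.

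Of 12 other aldehyde dehydrogenases, 6 were tested, with 1 higher and 3 lower in wild type (20.2% and 45.6% of all genes), 2 and 2 in AKAP1 null (13.9% and 28.1%) and 1 and 1 in LARP4 null cells (22.8% and 30%). At the ER 2 of 2 were lower, as were 72.1% of all genes. ALDH1L2, a mitochondrial folate enzyme, rose between wild type and AKAP1 null cells by 1.54 (SE 0.18) and ALDH9A1 by 1.17 (SE 0.14), the 2 of 6 called. The cytosolic retinal dehydrogenases ALDH1A2 and ALDH1A3 were lower in the wild-type pulldown, at -0.49 (SE 0.09) and -0.71 (SE 0.18). Of the 14 amino acid genes driven by ATF4, the stress factor that also drives ALDH18A1 and PYCR1, 2 were higher and 4 lower in wild type (20.2% and 45.6% of all genes), 3 and 3 in AKAP1 null (13.9% and 28.1%) and 4 and 2 in LARP4 null cells (22.8% and 30%). At the ER 2 of 8 were higher and 6 lower, against 19.8% and 72.1% of all genes, and in the cytosol 1 of 10 (PHGDH) was called, against 7.99%. The 2 higher in wild type were the mitochondrial enzymes PCK2 at 2.36 (SE 0.16) and SHMT2 at 1.07 (SE 0.13), which also rose between wild type and AKAP1 null cells, by 0.87 (SE 0.21) and 1.14 (SE 0.18). ASNS, the cytosolic asparagine synthetase, was lower at -1.76 (SE 0.32). No gene of the 3 lists passed the test of the LARP4 null difference in enrichment, or of total input levels in either null line.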

How the data were processed

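Footprints were measured in 12 ribosome profiling libraries and intact mRNA in 14 RNA-seq libraries, each lysate giving a total input and a pulldown. The authors removed rRNA and tRNA reads with Bowtie, aligned the rest with TopHat to GRCh38 (Ensembl 104), and with plastid spread footprints of 27 to 36 nt over their central bases, ignoring 13 nt at each end. The deposited estimated counts are sums of these footprints over the coding sequence, the untranslated regions or all exons, and RPKM was deposited for the coding sequence. For RNA-seq (STAR and featureCounts) the authors deposited a count per gene and a value named FPKM that is a scaled score, which was not used: FPKM here was computed from the counts. Entries of several overlapping genes stayed in the totals, 5.86% to 8.56% of footprints, and the lines of 1 broken RNA-seq entry were left out.

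Enrichment per lysate is the log2 ratio of RPKM, or of CPM with 0.5 counts added. Estimated counts were rounded, and edgeR 4.0.16 (quasi-likelihood, two-sided, Benjamini-Hochberg over all genes tested) in R 4.3.3 fitted the 12 libraries of a data type with CHX together, with a term per lysate and library totals as scale, or TMM for total inputs alone. The study takes pulldown and total input from 1 lysate, and their deviations correlated at 0.58 to 0.88. Genes needed 64 footprints in each total input or a mean of 64 RNA-seq counts, with calls made at an adjusted p under 0.05. The fits were tested on simulated data. Alternatives were TMM, DESeq2 1.42.0, other minimums, all exons, no lysate term and leaving out replicates. Other exon positions are all exon footprints less those in the deposited coding and untranslated classes. Coordinates, protein lengths and sequences are from GENCODE 44, and alignments used Biopython 1.88. Tables and figures used Python 3.11.15, pandas 2.3.3, scipy 1.17.1 and matplotlib 3.10.9.

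The mitochondrial genes are the 1056 nuclear-encoded ones of the study's annotation. Named were the members, AKAP1, LARP4 and SUPV3L1, the 5 genes nearest to ALDH18A1, and up to 5 called genes a list and comparison with the largest size, of lists of proline and glutamate neighbours, other aldehyde dehydrogenases and ATF4-regulated amino acid genes. Members, lists and tests were chosen with earlier results of these data known. 1 listed gene is not reported here.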

Additional observations from a re-analysis of the deposited data

Results flagged for a closer look

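The difference in OMM enrichment between AKAP1 null and wild-type cells passed its own test (edgeR interaction term) for 7 genes: ALDH5A1 (1.67), ALDH6A1 (1.66), ALDH2 (1.49), ALDH1B1 (1.31), ALDH18A1 (1.24), ALDH4A1 (1.17) and ALDH7A1 (1.08). Both AKAP1 null lysates lay above both wild-type lysates for each of the 7. How many of all genes did so was not counted, and the median difference over 13856 genes was 0.19. Levels of the 7 in the AKAP1 null total inputs differed from wild type by -0.32 to 0.04, with no adjusted p below 0.05. Groups of 2 are too small for a check of single outlying samples.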

How the results depend on the processing

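The fitted OMM footprint value of ALDH18A1 was 4.54 with TMM, 4.55 with DESeq2 and 4.10 over all exons, and 4.17 to 4.20 without either replicate. Members lower at the ER numbered 0 with TMM and with DESeq2, 2 with no replicate block (no lysate term) and 4 at 4 times the minimum. Of 7381 genes, 1800 were lower with TMM, 1483 with DESeq2 and 3244 with no replicate block. Those called in the cytosol numbered 1 at a minimum of 10 (PYCR3) and at 4 times the minimum (ALDH7A1), and 1 without replicate 1 (ALDH7A1) or replicate 2 (PYCR3). With no replicate block, 4 members were higher in LARP4 null cells and 4 rose between wild type and AKAP1 null cells, against 1576 and 98 of 13856 genes. PYCR1 also lost its call in wild type (adjusted p = 0.157) and AKAP1 null cells (adjusted p = 0.426). Leaving out a replicate gave 6 to 7 members at the ER, 5 to 7 in wild type, 7 in AKAP1 null, 7 to 8 in LARP4 null, 5 to 7 for AKAP1 null minus wild type and 0 to 1 for LARP4 null minus wild type. Values that changed sign are those at the ER with TMM, ALDH18A1 0.0105, PYCR1 0.0833, ALDH7A1 0.202 and ALDH5A1 0.0128, and with DESeq2, PYCR1 0.0501 and ALDH7A1 0.15; both centre the genes. ALDH18A1 minus ALDH6A1 was 2.02 in wild type alone.

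In total inputs a replicate block changed no call (0 of 9 in both lines), and equal numbers did not pair the samples (correlations of deviations 0.16, 0.34 and -0.07). On exon positions outside the counted classes, chosen after seeing the data, OMM enrichment was -0.27 for PYCR1, 3.41 for ALDH5A1 and 1.61 for ALDH7A1. The OMM pulldowns were the shallowest libraries, so members with few counted bases are known least well there.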
